A study of Sus scrofa with 13 samples.

Results

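Messenger RNA levels of respiratory complexes II to V and of cytochrome c were examined in the hearts of 13 pigs. Members were taken by gene symbol: SDHA, SDHB, SDHC, SDHD, CYC1 and CYCS, and every symbol beginning with UQCR, COX4, COX5, COX6, COX7, COX8 or ATP5 in the array's platform annotation. This gave 28 genes, represented by 36 probe sets, of 6765 genes with a symbol on the array. A probe set is the group of short probes that reads 1 transcript. Where a gene had several, the one with the highest mean log2 intensity over the 13 arrays stands for it and is called the lead. The 28 genes were 4 of complex II, 2 of complex III, cytochrome c, 7 of complex IV and 14 of complex V, and all 28 leads passed the filter on dim probe sets. CYC1, UQCRC1, UQCRC2, UQCRFS1, COX4I1, COX5A, COX6A2 and COX8A were not analysed here.

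All animals were female Sinclair miniswine, a small pig breed, 3 months old when a myocardial infarction was caused by permanent ligation of diagonal branches of a main coronary artery, the left anterior descending. The stem cell group (7 animals) was then given 50000000 cells, which the labels call stem cells or MPCs, suspended in 2 ml saline and spread over 5 places in the border zone of the infarct, 10000000 in each. The saline group (6 animals) was given 2 ml saline at 5 similar places. Heart muscle was sampled by drill biopsy 4 months later, and each animal gave 1 array. The position of each biopsy relative to scar and border zone is not stated in the labels, nor is a batch, and nothing in them links a saline animal to a stem cell animal.

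The respiratory chain lies in the inner mitochondrial membrane. Complex II, which is also an enzyme of the citric acid cycle, passes electrons from succinate to ubiquinone. Complex III moves them on to cytochrome c, and complex IV hands them to oxygen. Complexes III and IV pump protons, and complex V, the ATP synthase, uses the resulting gradient to make ATP. Heart muscle makes nearly all of its ATP this way. Complexes III, IV and V contain subunits encoded in mitochondrial DNA beside the nuclear-encoded subunits described here, while complex II is nuclear-encoded throughout.

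Values are log2 of the deposited intensities, and every difference is the mean after stem cells minus the mean after saline on that scale. Over the 14399 probe sets that were tested, the correlation between any pair of arrays lay between 0.936 and 0.986. Stem cells replicate 6 differed most from the saline animals, lying below the whole saline range in 20.7% and above it in 28.3% of all probe sets tested. In the other stem cell animals these shares were 10.3% to 20.0% and 8.83% to 20.1%. The tissue label was checked against sarcomere markers of heart muscle cells. All 13 that were measured passed the filter, and their mean lay between 13.72 and 14.13 after stem cells and between 13.74 and 13.94 after saline. The difference of this mean was 0.064, and 3 of the 13 genes had a negative difference (47.2% of all probe sets tested). MYH6, MYL7 and MYBPC3 of that list were not analysed here.

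Most subunits of complexes III, IV and V had a lower mean after stem cells, while complex II and cytochrome c lay close to the saline level. A negative difference was found in 22 of 28 genes, against 47.2% of all probe sets tested. The median difference over the 28 genes was -0.20, against 0.017 over all probe sets tested and -0.054 over the tested leads of all genes. It was -0.018 over the 1200 brightest probe sets, a class that held 25 of the 28 leads. In that class 52.2% of probe sets had a negative difference. At an unadjusted p under 0.05, 9 genes were lower (5.15% of all probe sets tested) and 0 were higher (5.40% of all). After Benjamini-Hochberg adjustment over all probe sets, 0 of 28 genes passed (0% of all), with a smallest adjusted p of 0.393 in limma. In 0 of 28 genes did the groups separate fully, which 0.160% of all probe sets did downward and 0.118% upward. In bulk tissue, fewer cells of a type and less RNA per cell cannot be told apart.

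**Figure D1:**
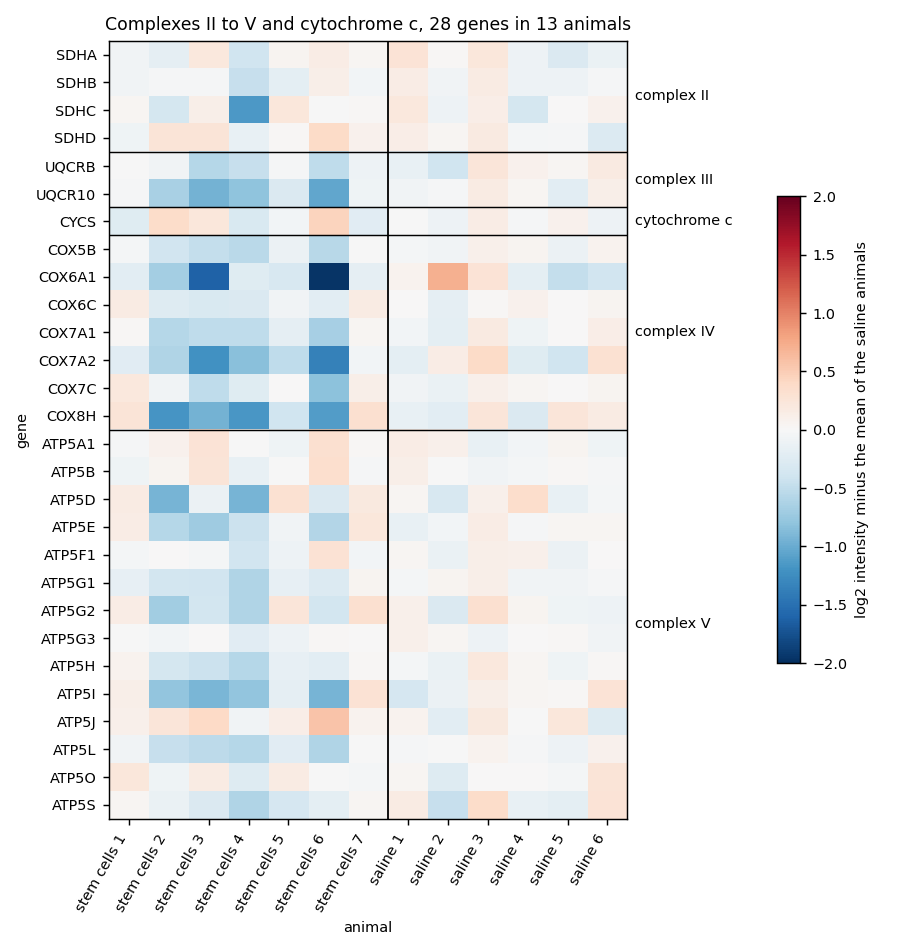
Log2 intensity of each of 28 genes (rows, by complex) in each of 13 animals (columns, stem cells left and saline right), minus the mean of the saline animals for that gene. Blue is lower and red is higher. The darkest blue cells of COX7A2, COX8H, UQCR10 and ATP5I belong to stem cells replicates 2, 3, 4 and 6, those of COX6A1 to replicates 2, 3 and 6, and stem cells replicates 1 and 7 look like the saline animals.

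Complex IV, cytochrome c oxidase, had negative differences in 7 of 7 genes, against 47.2% of all probe sets tested. At an unadjusted p under 0.05, 5 of them were lower (5.15% of all). The median difference of complex IV was -0.34 and its genes ranged from -0.74 to -0.11. COX7A2, the widely expressed form of subunit 7A, ranged from 10.90 over a median of 11.64 to 12.19 after stem cells and from 11.85 over 12.22 to 12.63 after saline. A count of 5 stem cell animals lay under the lowest saline animal, and the groups overlapped through replicates 1 and 7. The difference was -0.68 ± 0.21 (SE, adjusted p of 0.393, limma).

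COX7A1, the form of subunit 7A found in heart and skeletal muscle, ranged from 12.93 over 13.09 to 13.63 after stem cells and from 13.40 over 13.57 to 13.77 after saline. Stem cells replicates 2, 3, 4 and 6 lay at 13.02, 13.08, 13.09 and 12.93, under every saline animal, whereas replicates 1, 5 and 7 lay at 13.62, 13.41 and 13.63, inside the saline range. The difference was -0.34 ± 0.13 (SE, adjusted p of 0.423, limma). COX8H, the heart form of subunit 8, had the same 4 stem cell animals lowest.

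COX8H lay at 10.87, 11.10, 10.89 and 10.94 in stem cells replicates 2, 3, 4 and 6, at 12.30, 11.64 and 12.37 in replicates 1, 5 and 7, and between 11.75 and 12.30 after saline. Replicates 2 to 6 were thus all under the saline range, and replicates 1 and 7 were above it, replicate 1 by a margin smaller than the rounding of these values. The means were 11.44 ± 0.66 after stem cells (SD, n = 7) and 12.05 ± 0.25 after saline (SD, n = 6), a difference of -0.60 ± 0.26 (SE, adjusted p of 0.439, limma).

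COX6A1, the widely expressed form of subunit 6A, had the most negative difference of all 28 genes at -0.74 ± 0.31 (SE, adjusted p of 0.435, limma). It ranged from 8.35 over 10.01 to 10.14 after stem cells and from 9.84 over 10.26 to 11.04 after saline. Stem cells replicates 3 and 6, at 8.70 and 8.35, lay far under the rest, replicate 2 was just under the saline range at 9.64, and the difference was -0.54 without replicate 6. Unlike in COX7A1 and COX8H, replicate 4 lay inside the saline range, at 10.08.

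COX5B, a zinc-binding subunit on the matrix side, ranged from 13.40 over 13.56 to 13.95 after stem cells and from 13.84 over 13.96 to 14.05 after saline. Replicates 2, 3, 4 and 6 were again under the saline range, and the difference was -0.30 ± 0.10 (SE, adjusted p of 0.414, limma). The single-pass membrane subunits COX6C and COX7C had smaller differences, at -0.11 ± 0.093 and -0.19 ± 0.14 (SE). In both, stem cells replicates 1 and 7 lay above all saline animals, at 14.13 and 14.13 for COX6C and at 14.18 and 14.10 for COX7C, so that the stem cell values spanned the saline range on either side. The difference of COX7C was -0.081 without stem cells replicate 6.

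**Figure D2:**
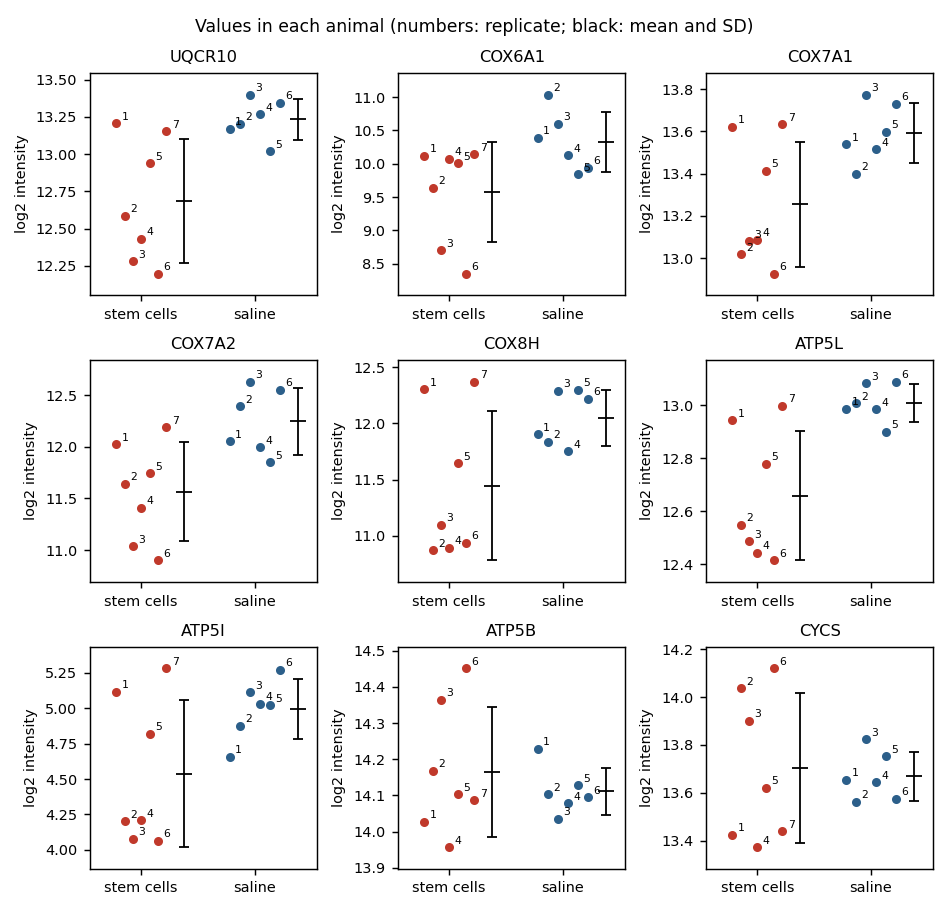
Log2 intensity of 9 genes in each animal, stem cells left in red and saline right in blue, with replicate numbers beside the points and the mean and SD in black. In UQCR10, COX7A1, COX7A2, COX8H, ATP5L and ATP5I, stem cells replicates 2, 3, 4 and 6 are the 4 lowest of 13 animals. In CYCS, stem cells replicates 2, 3 and 6 are the highest.

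Complex III was represented by a pair of its small subunits. UQCR10, which sits beside the catalytic core, lay at 12.58, 12.28, 12.43 and 12.20 in stem cells replicates 2, 3, 4 and 6 and at 13.21, 12.94 and 13.15 in replicates 1, 5 and 7. The saline animals lay between 13.02 and 13.40, so 5 stem cell animals were under them. The difference was -0.55 ± 0.16 (SE), with the smallest p of the 28 genes and an adjusted p of 0.393 (limma). UQCRB, a subunit next to the ubiquinone site, ranged from 13.79 over 14.27 to 14.36 after stem cells and from 13.97 over 14.42 to 14.61 after saline. Stem cells replicates 3, 4 and 6 were under the saline range, at 13.79, 13.91 and 13.86, while replicate 2 was inside it, at 14.29. The difference was -0.25 ± 0.13 (SE, adjusted p of 0.504, limma). The probe set of UQCRB carries the suffix that Affymetrix gives to sets whose probes can match several transcripts.

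Complex V had negative differences in 10 of 14 genes (47.2% of all probe sets tested). Its median difference was -0.20, which was -0.11 without stem cells replicate 2, -0.12 without replicate 4 and -0.13 without saline replicate 3. At an unadjusted p under 0.05, 3 of its genes were lower (5.15% of all). Each was a part of the membrane sector or of the peripheral stalk: ATP5L, ATP5G1 and ATP5H.

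In the catalytic head, ATP5A1 and ATP5B, which encode the alpha and beta subunits, had differences of 0.084 ± 0.081 and 0.054 ± 0.082 (SE), which were 0.045 and 0.0062 without stem cells replicate 6. ATP5B lay between 13.96 and 14.45 after stem cells and between 14.04 and 14.23 after saline, with stem cells replicates 3 and 6 above the saline range, at 14.37 and 14.45. ATP5A1 had the same 2 animals above the saline range, at 14.46 and 14.50. In these genes the animals that were low in complex IV were not low, except that stem cells replicate 4 had the lowest ATP5B value, at 13.96.

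The central stalk, which turns inside the head, was represented by ATP5D and ATP5E, the delta and epsilon subunits. ATP5E ranged from 12.32 over 12.60 to 13.25 after stem cells and from 12.88 over 13.03 to 13.18 after saline, a difference of -0.28 ± 0.15 (SE, adjusted p of 0.516, limma). Stem cells replicates 2, 3, 4 and 6 were under the saline range and replicate 7 was above it. ATP5D had a difference of -0.23 ± 0.21 (SE), and stem cells replicates 2 and 4, both at 10.77, lay below the saline range, which began at 11.38. Without stem cells replicate 2 it was -0.11.

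The peripheral stalk holds the head still against the turning rotor, and its 4 measured genes went both ways. ATP5H, subunit d, ranged from 12.63 over 12.98 to 13.27 after stem cells and from 13.07 over 13.19 to 13.41 after saline, with a difference of -0.23 ± 0.11 (SE, adjusted p of 0.464, limma). ATP5F1, subunit b, and ATP5O, the subunit that joins stalk and head, had differences of -0.048 ± 0.094 and 0.022 ± 0.096 (SE), which turned to 0.0095 without stem cells replicate 4 and to -0.031 without saline replicate 2. ATP5J, coupling factor 6, had the most positive difference of the 28 genes, at 0.21 ± 0.13 (SE, adjusted p of 0.581, limma). Stem cells replicates 2, 3 and 6 lay above the saline range of ATP5J, at 10.69, 10.84 and 11.02, where the highest saline animal was at 10.67.

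The ring of c subunits, which turns as protons pass, is encoded by ATP5G1, ATP5G2 and ATP5G3, whose mature proteins are the same. ATP5G1 lay between 13.20 and 13.86 after stem cells and between 13.74 and 13.93 after saline, and 6 of 7 stem cell animals were under the lowest saline animal, the most in any of the 28 genes. Its difference was -0.27 ± 0.094 (SE, adjusted p of 0.420, limma). ATP5G2 had a difference of -0.19 ± 0.17 (SE) and ATP5G3 of -0.050 ± 0.065 (SE), with a 95% interval of -0.19 to 0.088 for ATP5G3. ATP5G2 was at -0.11 without stem cells replicate 2 and ATP5G3 at -0.021 without replicate 4. ATP5G2 values ran from 11.97 over 12.29 to 12.99 after stem cells and from 12.38 over 12.65 to 12.99 after saline.

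ATP5L and ATP5I encode subunits g and e, small membrane proteins at the place where ATP synthase dimers meet. ATP5L ranged from 12.41 over 12.55 to 13.00 after stem cells and from 12.90 over 13.00 to 13.09 after saline, with 5 stem cell animals under the saline range. The means were 12.66 ± 0.24 after stem cells (SD, n = 7) and 13.01 ± 0.070 after saline (SD, n = 6), a difference of -0.35 ± 0.11 (SE, adjusted p of 0.393, limma). ATP5I was measured near the filter level of 3.36, at 4.06 to 5.28 after stem cells and 4.66 to 5.27 after saline, with a difference of -0.46 ± 0.22 (SE, adjusted p of 0.476, limma). Stem cells replicates 2, 3, 4 and 6, at 4.20, 4.08, 4.21 and 4.06, were its 4 lowest. ATP5S encodes factor B, a protein associated with the synthase and not a structural subunit, and it had a difference of -0.21 ± 0.16 (SE), which was -0.14 without saline replicate 3.

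**Figure D3:**
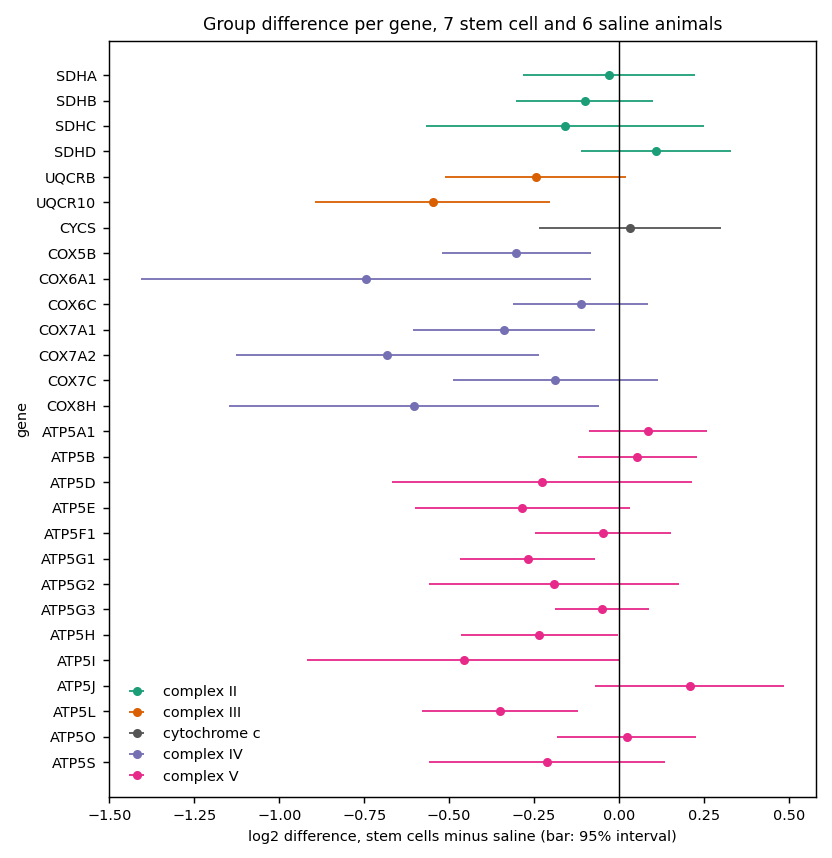
Log2 difference, stem cells minus saline, of each of 28 genes with its 95% interval from limma, coloured by complex. The differences of all 7 complex IV genes lie left of 0, and in complex V they range from -0.46 for ATP5I to 0.21 for ATP5J. Intervals cross 0 in complex II, CYCS, UQCRB, COX6C and COX7C. In complex V all intervals cross 0 except those of ATP5L, ATP5G1 and ATP5H.

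In complex II the median difference was -0.066, and 3 of 4 genes were negative (47.2% of all probe sets tested). SDHA, the flavoprotein that oxidises succinate, and SDHB, the iron-sulphur subunit, had differences of -0.030 ± 0.12 and -0.10 ± 0.095 (SE). SDHC and SDHD, the membrane anchors, were at -0.16 ± 0.19 and 0.11 ± 0.10 (SE). The adjusted p of these 4 genes was at least 0.707 (limma), and the 95% interval of SDHA ran from -0.28 to 0.22. SDHC ranged from 10.39 over 11.56 to 11.77 after stem cells and from 11.19 over 11.59 to 11.75 after saline. Its lowest value belonged to stem cells replicate 4, and without that animal the difference of SDHC was 0.0068, that of SDHA 0.032, that of SDHB -0.041 and the complex II median 0.019. The difference of SDHD was 0.052 without saline replicate 6.

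SDHD ranged from 12.90 over 13.13 to 13.44 after stem cells and from 12.77 over 13.06 to 13.22 after saline. Stem cells replicates 2, 3 and 6, at 13.30, 13.30 and 13.44, lay above every saline animal. CYCS, cytochrome c, had means of 13.70 ± 0.31 after stem cells (SD, n = 7) and 13.67 ± 0.10 after saline (SD, n = 6). The difference was 0.033 ± 0.13 (SE, adjusted p of 0.938, limma), and it was -0.036 without stem cells replicate 6. Stem cells replicates 2, 3 and 6 were above the saline range of CYCS, at 14.04, 13.90 and 14.12, and replicates 1, 4 and 7 were below it, at 13.43, 13.37 and 13.44.

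By animal, the stem cell group was uneven. Stem cells replicate 4 lay below the saline range in 23 of 28 genes, against 18.3% of all probe sets tested, and above it in 0 (15.6% of all). Replicates 2, 3 and 6 were each below the saline range in 15 genes, against 20.0%, 13.0% and 20.7% of all probe sets, and above it in 3, 5 and 6 genes, against 20.1%, 15.1% and 28.3%. Replicates 1, 5 and 7 were below it in 3, 7 and 1 genes, against 10.6%, 13.8% and 10.3%, and above it in 3, 1 and 6 genes, against 8.83%, 13.2% and 10.6%.

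Replicate 4 was low in complex II and cytochrome c as well as in complexes III to V, with SDHA, SDHB, SDHC and CYCS among its 23 genes. Replicates 2, 3 and 6 were low in a shared set of UQCR10, COX5B, COX6A1, COX6C, COX7A1, COX7A2, COX8H, ATP5E, ATP5G1, ATP5G2, ATP5H, ATP5I and ATP5L, and lay above the saline range in SDHD, CYCS and ATP5J. In 12 of 28 genes stem cells replicates 2, 3, 4 and 6 were the 4 lowest of 13 animals, an order that 2.57% of all probe sets tested had. This order was chosen after the values were seen and is a description of these animals. The 12 genes were 1 of complex III, 5 of complex IV and 6 of complex V, and 0 of complex II or cytochrome c.

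The mean over the complex IV genes, as a deviation from the saline mean, was 0.027, -0.54, -0.80, -0.54, -0.23, -0.95 and 0.059 in stem cells replicates 1 to 7 and lay between -0.10 and 0.19 in saline animals. For complex V the same measure was 0.046, -0.29, -0.19, -0.44, -0.041, -0.14 and 0.079, and between -0.13 and 0.10 in saline animals. Complex II was at -0.54 in stem cells replicate 4, between -0.077 and 0.16 in the other stem cell animals and between -0.15 and 0.19 in saline animals. Thus the animal with the lowest complex II and complex V means was replicate 4, while replicate 6 had the lowest complex III and complex IV means.

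**Figure D4:**
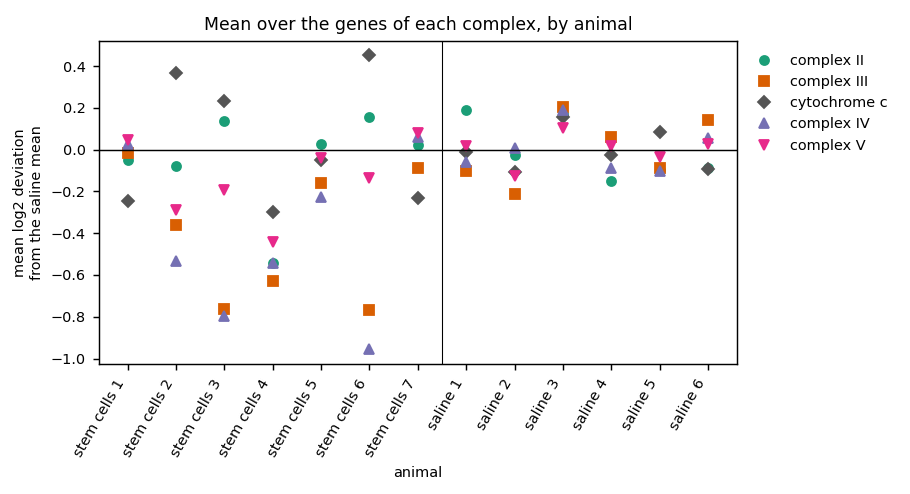
Mean log2 deviation from the saline mean over the genes of each complex, by animal, stem cells left and saline right. Complex III and IV means reach -0.77 and -0.95 in stem cells replicate 6, where cytochrome c is at 0.45, and the 5 symbols lie between -0.63 and -0.30 in stem cells replicate 4.

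The spread between animals was larger after stem cells than after saline in 26 of 28 genes, against 52.8% of all probe sets tested and 65.6% of the 1200 brightest. The mean over all 28 genes had an SD of 0.20 after stem cells (n = 7) and 0.081 after saline (n = 6). The limma fit gives both groups 1 variance per probe set.

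Within-animal ratios were compared for pairs of genes that encode forms of the same subunit, by exact two-sided permutation tests over all 1716 splits of the animals, adjusted over the 2 pairs. The log2 ratio of COX7A1 to COX7A2, the muscle form over the widely expressed one, was 1.69 ± 0.26 after stem cells (SD, n = 7) and 1.35 ± 0.28 after saline (SD, n = 6), a difference of 0.34 (exact permutation p of 0.0466, adjusted 0.0466). It ran from 1.38 to 2.04 after stem cells and from 1.01 to 1.75 after saline, so the groups overlapped. The call was lost when saline replicate 1, 2, 3 or 6 or stem cells replicate 1, 3, 4, 5 or 6 was left out (exact permutation p of 0.0505 to 0.0960, differences of 0.28 to 0.37). The log2 ratio of ATP5G1 to ATP5G3 was -0.24 ± 0.17 after stem cells (SD, n = 7) and -0.022 ± 0.13 after saline (SD, n = 6), a difference of -0.22 (exact permutation p of 0.0280, adjusted 0.0466). That call was lost when saline replicate 3 or 6 or stem cells replicate 2, 3, 4 or 6 was left out (exact permutation p of 0.0530 to 0.0619, differences of -0.17 to -0.21). A ratio within an array compares the signals of 2 probe sets, and whether these respond equally to their transcripts was not tested. Both pairs were chosen with earlier results of these data known.

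Among the 28 genes, 7 had more than 1 probe set, and 6 of their 8 further probe sets passed the filter. These did not all go the way of the lead. The other probe set of COX7C, dimmer than the lead, had a difference of 0.50 ± 0.21 (SE, unadjusted p of 0.0279, adjusted p of 0.431, limma). In it, 5 stem cell animals lay above the saline range. The counts of lower and higher genes given for complex IV and for all 28 genes are counts of leads. The lead had -0.19 (adjusted p of 0.636, limma). For SDHB the other probe set was at 0.37 ± 0.26, for SDHA at 0.22 ± 0.41 and for ATP5S at 0.32 ± 0.19 (SE), each opposite in sign to its lead. The 2 further probe sets of ATP5L were at -0.26 ± 0.37 and -0.044 ± 0.23 (SE), with the same sign as the lead. UQCR10, COX5B, COX6A1, COX7A1, COX7A2, COX8H, ATP5G1 and ATP5H, 8 of the 9 genes at an unadjusted p under 0.05, rested on 1 probe set each.

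Of 45 assembly factors and related proteins of complexes II to V, 14 were measured and passed the filter, and 10 of these had a negative difference (47.2% of all probe sets tested). Their median difference was -0.043 and their mean difference -0.15. At an unadjusted p under 0.05, 3 were lower (5.15% of all) and 0 higher (5.40% of all), and 0 passed the adjusted threshold. HIGD2A, a small inner-membrane protein that takes part in complex IV assembly, was at -0.69 ± 0.23 (SE, adjusted p of 0.410, limma), with 5 stem cell animals under its saline range. FMC1, an assembly factor of ATP synthase known from yeast, was at -0.80 ± 0.33, and CMC1, which binds a complex IV subunit during assembly, at -0.46 ± 0.21 (SE). SDHAF2 had the most positive difference of the 14, at 0.52 ± 0.27 (SE, adjusted p of 0.522, limma), with 3 stem cell animals above its saline range. The ATP synthase factors ATPAF1 and TMEM70 were at -0.0028 ± 0.20 and 0.097 ± 0.16, and OXA1L, which inserts proteins into the inner membrane, at -0.0013 ± 0.15 (SE).

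Markers of mitochondrial content had a median difference of -0.0047, a mean difference of 0.070 and 3 of 5 negative values (47.2% of all probe sets tested). The mean of CS, VDAC1, TOMM20, TFAM and HSPD1 lay between 11.50 and 12.08 after stem cells and between 11.56 and 11.88 after saline, and it was highest in stem cells replicate 6. Citrate synthase CS, a matrix enzyme, was at -0.060 ± 0.11 and VDAC1, a pore of the outer membrane, at -0.056 ± 0.11 (SE). TFAM, which packs and transcribes mitochondrial DNA, was at 0.37 ± 0.15 (SE, adjusted p of 0.437, limma).

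Of other cell types, 10 of 14 macrophage and monocyte markers were measured, and all 10 passed the filter. Their mean lay between 6.24 and 7.40 after stem cells and between 6.79 and 7.61 after saline. The means of the list were 6.82 ± 0.38 after stem cells (SD, n = 7) and 7.20 ± 0.28 after saline (SD, n = 6), a difference of -0.37. Of these 10 genes 9 were negative (47.2% of all probe sets tested) and 3 were lower at an unadjusted p under 0.05 (5.15% of all). The list mean was 6.61, 6.59, 7.40 and 6.24 in stem cells replicates 2, 3, 4 and 6. The 7 measured smooth muscle and pericyte markers averaged 8.03 to 9.87 after stem cells and 9.09 to 10.28 after saline, with means of 9.09 ± 0.62 (SD, n = 7) and 9.61 ± 0.48 (SD, n = 6) and a difference of -0.51. Of these 7 genes 5 were negative (47.2% of all probe sets tested). At an unadjusted p under 0.05, 2 were lower (5.15% of all), CNN1 at -1.54 and MYL9 at -0.88. Of 11 endothelial markers measured, 10 passed the filter. These averaged 6.99 to 7.79 after stem cells and 7.40 to 8.03 after saline, a difference of -0.17. Their mean was 7.01, 7.79, 7.73 and 6.99 in stem cells replicates 2, 3, 4 and 6. Of these markers 7 were negative (47.2% of all probe sets tested). At an unadjusted p under 0.05, 1 was lower (5.15% of all), ENG at -0.65, and 1 was higher (5.40% of all), TEK at 0.38. The 11 collagen and fibroblast markers averaged 8.71 ± 0.62 after stem cells (SD, n = 7) and 8.69 ± 0.63 after saline (SD, n = 6). The collagen mean was 9.09, 8.78 and 9.66 in stem cells replicates 2, 3 and 4, and between 8.16 and 9.86 in saline animals. It was highest among stem cell animals in replicate 4, and lowest of all animals in stem cells replicate 6. With the sarcomere mean minus the collagen mean of each animal as a covariate, the complex IV median was -0.35 and 10 of the 28 genes were lower at an unadjusted p under 0.05. The share of all probe sets in that fit was not taken. The part of macrophages, endothelial and smooth muscle cells in the differences was not tested.

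RNA degradation raises the signal of a control transcript's 3' probe set over that of its 5' probe set. For EF1A the log2 ratio of 3' over 5' was 0.81 ± 0.11 after stem cells (SD, n = 7) and 0.95 ± 0.098 after saline (SD, n = 6), with an exact permutation p of 0.0460 and an adjusted p of 0.138 over 3 such ratios. In stem cells replicates 2, 3, 4 and 6 it was 1.01, 0.74, 0.78 and 0.73. In replicates 1, 5 and 7 it was 0.89, 0.71 and 0.83. The actin ratio was 5.03, 2.17, 3.29 and 2.93 in replicates 2, 3, 4 and 6, and 3.03, 1.61 and 2.19 in replicates 1, 5 and 7. For GAPDH the same animals had 1.12, 0.37, 0.85 and 0.47, and 0.57, 0.024 and 0.34. Saline animals lay between 2.21 and 4.20 for actin and between 0.10 and 1.12 for GAPDH. Means after stem cells and after saline were 2.89 and 3.13 for actin (exact permutation p of 0.664). For GAPDH they were 0.53 and 0.52 (exact permutation p of 0.959). With the EF1A ratio as a covariate, 3 of the 28 genes were lower at an unadjusted p under 0.05, the complex IV median was -0.26 and the complex III median -0.25. The share of all probe sets in that fit was not taken.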

How the data were processed

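Each animal gave 1 Affymetrix porcine array of biotin-labelled cRNA, per the labels' protocols. The deposited intensities are on a linear scale and were made by the authors with GCRMA (background correction, normalization between arrays, 1 value per probe set), per the submitters' processing notes. Its version and settings are not stated in the sources used here. Such normalization hides a change shared by most genes.

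After removal of 124 control probe sets, 23999 remained, and their intensities were converted to log2. Probe sets with a mean above the 40th percentile (3.36) were tested, 14399 in all. Among those tested, the platform annotation gave 1 symbol for 6884 and several for 146. Another 2 probe sets whose several symbols include one of the rule (ATP5SL, COX6B) were not named. All 28 member symbols stood under the same gene ID in a table of RefSeq pig genes (assembly Sscrofa11.1).

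Groups were compared in limma 3.58.1 (R 4.3.3; lmFit, eBayes with trend) with Benjamini-Hochberg adjustment over all probe sets tested and a threshold of 0.05. The fit was tested on simulated data. The median SE over all probe sets was 0.18, and precision is limited by the number of arrays. Members, gene lists and pairs were chosen with earlier results of these data known. Genes to be given animal by animal were those with the smallest p in each complex and a fixed list of core subunits. Of these, SDHA, SDHB, ATP5O and ATP5G3 are given in the text by their differences only. Animal values or ranges are also given for COX6C, COX7C, COX8H, ATP5D, ATP5E and ATP5J, which were in neither set. Grouping by complex follows textbook knowledge. Alternatives were no filter, a 60th percentile filter, a second quantile normalization, centring on array medians, leaving out each animal, a replicate block, other variance models, array weights, the mean over a gene's probe sets, and covariates for tissue makeup and for the EF1A ratio.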

Additional observations from a re-analysis of the deposited data

Results flagged for a closer look

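In groups of 6 or 7 animals, a value was marked where its gap to the nearest other animal was large against the range of its group (Dixon's test at the 95% level, which marks about 1 group in 20 by chance). Over 72 groups of values 3 were marked. SDHC had a log2 intensity of 10.4 in stem cells replicate 4, against 11.2 to 11.8 in the other stem cell animals. The complex II mean of the same animal deviated by -0.54 from the saline mean, against -0.077 to 0.16 in the others, and it contains SDHC. COX6C had a log2 intensity of 13.78 in saline replicate 2, against 13.97 to 14.05 in the other saline animals.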

How the results depend on the processing

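The count of genes past the adjusted threshold stayed at 0 and the count of higher genes at an unadjusted p under 0.05 stayed at 0 under all 24 alternatives run for them. The count of lower genes, 9, became 3 with the EF1A ratio as a covariate and lay between 6 and 12 when 1 animal was left out. Shares over all probe sets were not taken under the alternatives. With 1 animal left out, the median difference ranged from -0.26 to -0.13 over all genes, -0.46 to -0.34 in complex III, -0.40 to -0.28 in complex IV, -0.27 to -0.11 in complex V, -0.10 to 0.019 in complex II and -0.036 to 0.088 for cytochrome c. The complex II median turned to 0.10 with the mean over a gene's probe sets, and cytochrome c to -0.028 with array weights. Of 28 single genes, 20 kept their sign under every alternative run. With the mean over probe sets, the sign turned for ATP5S (0.055), COX7C (0.16), SDHA (0.093) and SDHB (0.13). With the second quantile normalization it turned for ATP5F1 (0.012) and SDHA (0.017), and with array weights for CYCS. Leaving out 1 animal gave -0.10 to 0.0095 for ATP5F1, -0.031 to 0.075 for ATP5O, -0.087 to 0.032 for SDHA and -0.23 to 0.0068 for SDHC. The cause of these turns was not tested.

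Replicate numbers 1 to 6 occur in both groups. The labels do not say whether these numbers pair animals. Animals of the same number correlated at -0.27 to 0.24 in their deviations from the group means, which cannot exclude a weak pairing. With a replicate block, 10 genes were lower at an unadjusted p under 0.05 and the median over all genes was -0.26. The blocked ratio differences were 0.38 for COX7A1 to COX7A2 and -0.26 for ATP5G1 to ATP5G3 (exact sign-flip permutation p of 0.0625 and 0.0938). Without the block and with 1 animal left out, these ratio differences ranged from 0.28 to 0.42 and from -0.26 to -0.17. ATP5I lay closest to the filter level, and its intensity limits what can be read from it.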
